A study of Mus musculus with 12 samples.

Results

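MicroRNAs of the miR-26 and miR-101 families were followed in adult mouse liver across 2 days of a light-dark schedule: mmu-miR-26a, mmu-miR-26b, mmu-miR-101a and mmu-miR-101b, written without the mouse prefix from here on. They are the 4 array entries, of 650 on the array, that carry these names without a star, the mark the array uses for the less abundant strand of a hairpin. They were chosen by name, as miRNAs abundant in normal liver and reported as low in liver cancer, and not by their values. Earlier results of these data were, however, known when they were chosen. All 4 were detected on all 12 arrays and stood among the 139 entries that the scanner software detected on at least 6 arrays, which were the entries tested.

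The study asked about miRNAs and the circadian rhythm of the liver. Adult mice, of no stated strain, genotype or sex, had free food and water, lights that were on for 12 h and off for 12 h, and no other stated treatment. The times of collection ran from ZT18 to ZT62 in steps of 4 h, where ZT is the number of hours since a lights-on, and the RNA of 2 livers was pooled for each time and read on 1 one-colour array. The 6 arrays of ZT26, ZT30, ZT34, ZT50, ZT54 and ZT58 fell in the light, and those of ZT18, ZT22, ZT38, ZT42, ZT46 and ZT62 fell in the dark. Each clock time (2, 6, 10, 14, 18 and 22 h after lights-on) was therefore sampled by 2 pools 24 h apart, called cycle 1 (ZT18 to ZT38) and cycle 2 (ZT42 to ZT62) here. A p-value below refers to variation between such pools, labelling and hybridisation included; variation between single mice was not measured.

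A miRNA guides a repressing protein complex to messenger RNAs, chiefly through pairing of bases 2 to 8 of its 5′ end, the seed. The miR-26 and miR-101 families are abundant in adult liver and are known for restraining cell division there: both repress Ezh2, a histone methyltransferase linked to growth, miR-26a also represses cyclins such as Ccnd2 and Ccne2, and miR-101 represses the survival protein Mcl1. The miR-26 genes lie within Ctdsp phosphatase genes, whose products act on the retinoblastoma protein, another brake on division. Both families are widely reported as low in hepatocellular carcinoma.

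The mature sequences show how alike the members of a family are, and they are given 5′ to 3′ with the seed in capitals, from RefSeq (build GRCm38.p6).
miR-26a: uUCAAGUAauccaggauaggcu
miR-26b: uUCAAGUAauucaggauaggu
miR-101a: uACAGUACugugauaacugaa
miR-101b: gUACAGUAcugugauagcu

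The miR-26 strands share the seed UCAAGUA, which no other of the 1679 mature mouse names in the RefSeq table carries. Their first 21 bases are identical at 19 positions and differ by C11U and C21U, counted from 1 at the 5′ end with the base of miR-26a first. The listed miR-101b begins 1 base earlier than miR-101a, so that the seeds are the same stretch in 2 frames, ACAGUAC in miR-101a and UACAGUA in miR-101b. When miR-101b is shifted by 1 base, 17 of 18 compared positions are identical and the remaining one is A16G, at the position of miR-101a. Bases 2 to 7 are shared further, by miR-6371 with the miR-26 strands, by miR-144-3p with miR-101a and by miR-582-5p with miR-101b. A further RefSeq strand, miR-101c, lies whole within miR-101a, as its positions 2 to 20, and no array entry has that name.
miR-101c: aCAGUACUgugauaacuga
The probe sequences were not analysed here, so signal of miR-101c and of family partners on a probe cannot be told apart from that of the named strand.

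In all, 5 hairpins give rise to these strands, and the positions below are those of RefSeq in GRCm38.p6, since the sources used here name no build. Mir26a-1 (chr9:119031796-119031885, plus strand, within Ctdspl) and Mir26a-2 (chr10:126995530-126995613, plus strand, within Ctdsp2) give the same miR-26a. Mir26b (chr1:74394310-74394394, plus strand) lies within Ctdsp1. Mir101b (chr19:29135279-29135375, plus strand) lies within Rcl1, and no protein-coding gene of the table spans Mir101a (chr4:101346945-101347027, minus strand). Whether these stretches are intronic was not analysed here. An array cannot tell the 2 sources of miR-26a apart.

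The array files used here gave 2 of these hairpins an entry for the opposite strand, miR-26b* and miR-101a*. The hairpins are shown with the member in capitals, so that the opposite strand is the lower-case stretch across the loop.
Mir26b: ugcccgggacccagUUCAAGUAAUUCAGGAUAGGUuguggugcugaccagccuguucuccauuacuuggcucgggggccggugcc
Mir101a: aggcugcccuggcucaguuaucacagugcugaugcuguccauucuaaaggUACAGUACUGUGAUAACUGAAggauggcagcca
The entry miR-26b* was detected by the scanner software on 0 of 12 arrays, with 9 of 240 spots well above background. The entry miR-101a* was detected on 1 array, ZT50, with 6 of 240 spots well above background, and reached 29.1 intensity units there. The floor was 21.9 intensity units, the median over the 12 arrays of the lowest level of a detected probe on each. Both entries otherwise lay at this floor, so no fold is given for them. On the other 11 arrays the only strand of the Mir101a hairpin that was detected was miR-101a, and on all 12 arrays the only strand of Mir26b was miR-26b.

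The 12 arrays were alike in the signal of detected probes, but not in dim signal. Scaling factors between arrays, from 157 probes detected on all of them, lay between 0.910 and 1.16. The median of all deposited values of an array ran from 0.661 to 4.12 units. On each array, 16.5% to 19.6% of spots were well above background, and 0 spots were saturated. All 5 hepatocyte markers (such as miR-122) were detected on all 12 arrays, as were both endothelial markers, 4 of 6 leukocyte markers, 2 of 3 red cell markers and 3 of 5 mesenchymal markers. None of the 5 striated muscle, 3 neuronal and 4 pancreatic markers was detected on any array. ZT18 to ZT46 were on slide 1 (8 arrays) and ZT50 to ZT62 on slide 2 (4 arrays, 3 of them light), and the slides were scanned at different times.

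The level of miR-26a hardly moved over the 2 days. Its scaled intensity read 1023, 1124.5, 999, 966, 1031 and 968 units at ZT18, ZT22, ZT26, ZT30, ZT34 and ZT38. It read 1038, 1009, 1011, 1037, 985 and 970.2 units at ZT42, ZT46, ZT50, ZT54, ZT58 and ZT62. ZT22 was the highest pool and ZT30 the lowest, 1.16-fold apart, and the other pools lay close together.

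Its partner miR-26b was as even. It read 834, 854, 768, 755, 847 and 804 units over the 6 pools of cycle 1 in the same order. Over cycle 2 it read 823, 823, 838, 852, 826 and 761 units. ZT26, ZT30 and ZT62 stood below the other 9 pools, and the highest (ZT22) exceeded the lowest (ZT30) by 1.13-fold.

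For miR-101a, the 6 pools of cycle 1 read 250.0, 255, 243, 239, 282 and 241 units. Those of cycle 2 read 247, 245, 266, 254, 270.2 and 252 units. The highest pool was ZT34 and the lowest again ZT30, 1.18-fold apart, and 3 light pools (ZT34, ZT50 and ZT58) stood above every dark one.

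The partner miR-101b had its highest and lowest pools at the same clock times. Cycle 1 read 569, 575, 588, 517, 618 and 573 units, and cycle 2 read 584, 568, 608, 597, 620.1 and 561 units. ZT58 was highest, ZT34 next, and ZT30 lowest by a clear step, with 1.199-fold between the extremes.

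**Figure D1:**
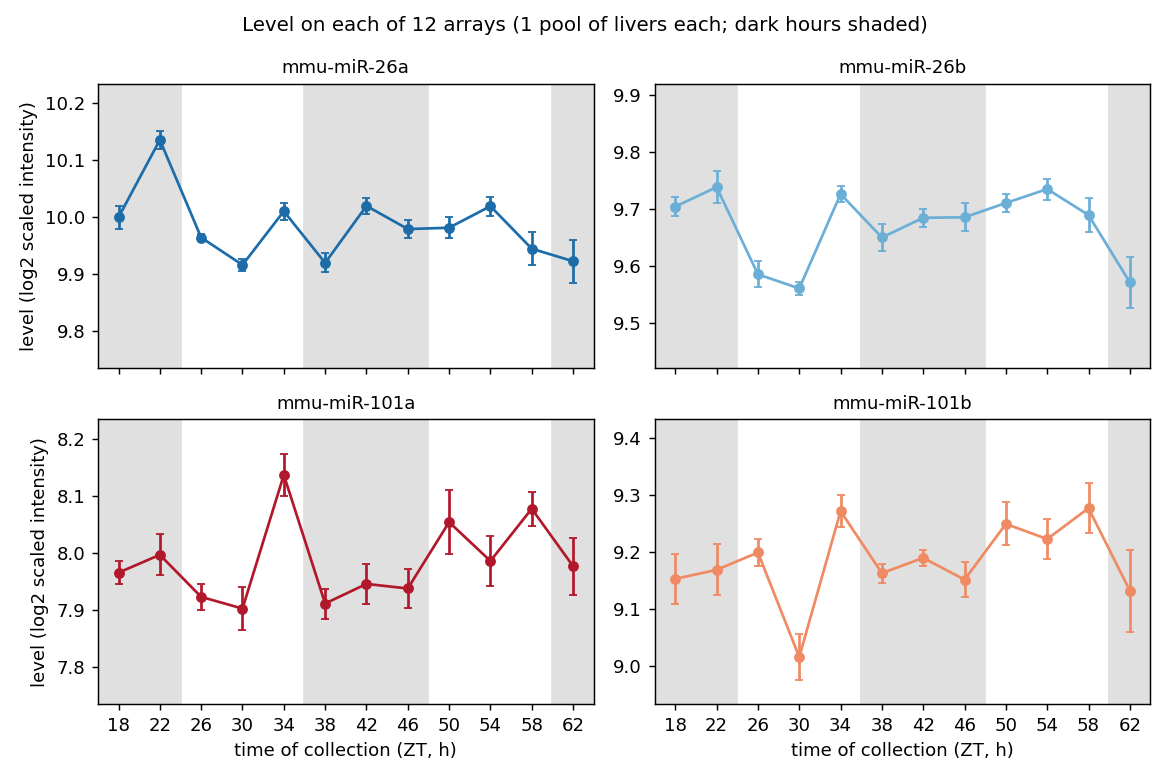
Level of each miRNA on the log2 scale (scaled intensity) against time of collection in h (ZT), 1 point for each of 12 pools, with bars of 1 standard error over the spots of the probe; dark hours are shaded. Each panel spans the same width of the log2 scale, and ZT30 is the lowest point in all 4. For miR-26a and miR-101a, ZT38 is nearly as low (9.919 against 9.916, and 7.91 against 7.90).

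The spread over the 12 pools was small for all 4, with a coefficient of variation of 4.33% for miR-26a, 4.37% for miR-26b, 5.09% for miR-101a and 4.86% for miR-101b. On the log2 scale the SD was 0.06, 0.06, 0.07 and 0.07 in that order (n = 12). Among the 63 tested entries with a mean above 100 units, the median SD was 0.07, and 43 had a larger SD than miR-26a, 40 than miR-26b, 31 than miR-101a and 34 than miR-101b. The miR-26 strands thus lay in the steadier part of the bright entries and the miR-101 strands in the middle. The spots of 1 probe on 1 array, 8 to 10 after those marked as outliers were left out, had a median coefficient of variation of 3.44% and 4.54% for miR-26a and miR-26b. For miR-101a and miR-101b it was 7.65% and 7.94%. These values are for single spots, whereas a pool value is their mean. The median standard error of that mean was 0.02, 0.02, 0.04 and 0.04 on the log2 scale for miR-26a, miR-26b, miR-101a and miR-101b. Each was below the SD between pools.

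**Figure D2:**
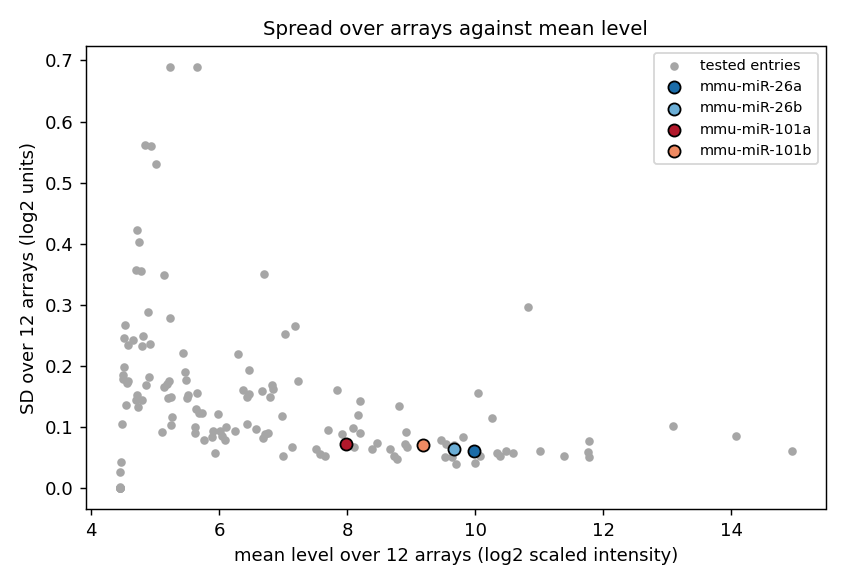
SD of the log2 level over 12 pools (y axis, log2 units) against the mean log2 scaled intensity (x axis) for the 139 tested entries, grey, with the 4 miRNAs in colour. The coloured points have SDs of 0.06 to 0.07 and lie among the other bright entries; the widest spreads belong mostly to dim entries near the floor.

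In the pools of the dark, the miR-26 strands were level with those of the light and both miR-101 strands had slightly lower means, but none of the 4 passed the test. limma with Benjamini-Hochberg adjustment over the 139 entries called 0 entries between dark and light (0%), and 11 had an unadjusted p under 0.05 (7.91%), of which 0 were among the 4. The smallest adjusted p of any entry was 0.437. Over all tested entries, 41 were higher and 93 lower by their means in the dark; the median of these differences was -0.02 on the log2 scale.

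For miR-26a, the light pools ran from 966 to 1037 units (log2 9.97 ± 0.04, SD, n = 6) and the dark pools from 968 to 1124.5 units (9.996 ± 0.08). The groups overlapped almost wholly, and the fold of dark over light was 1.02 (95% interval 0.963 to 1.07; limma adjusted p = 0.860). For miR-26b, the mean log2 level of the light pools was 9.67 ± 0.08 and that of the dark pools 9.67 ± 0.06 (SD, 6 pools in each), which makes a fold of 1.00 (0.947 to 1.06; limma adjusted p = 1).

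For miR-101a, the light pools ran from 7.90 to 8.14 on the log2 scale with a median of 8.02, and the dark pools from 7.91 to 7.997 with a median of 7.96. The means were 8.01 ± 0.09 and 7.96 ± 0.03 (SD, n = 6 each), and each of the 6 dark pools lay below the light mean although the groups overlapped. The fold of dark over light was 0.961 (0.906 to 1.02; limma adjusted p = 0.741, exact two-sided permutation over 924 splits p = 0.177).

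For miR-101b, the light pools ran from 9.02 to 9.28 with a median of 9.24, and the dark pools from 9.13 to 9.19 with a median of 9.16. Again each of the 6 dark pools lay below the light mean (9.21 ± 0.10 against 9.16 ± 0.02, SD), and 5 of 6 light pools lay above every dark pool while ZT30 lay below them all. The fold was 0.968 (0.912 to 1.03; limma adjusted p = 0.741, exact permutation p = 0.290). Without the ZT30 array the difference was -0.08 on the log2 scale and passed the test (limma adjusted p = 0.0332), as 1 of 2 entries called, the other being miR-1895. Within slide 1, where ZT30 was a light array beside only ZT26 and ZT34, the miR-101b difference was 0.00. On the 75th percentile of all probes the differences were 0.37 for miR-101a and 0.38 for miR-101b, where the median of all tested entries moved to 0.38. Without scaling they were 0.0031 and 0.01, both below the median of all entries there (0.03), and with quantile normalization they were 0.02 for miR-101a and -0.04 for miR-101b.

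**Figure D3:**
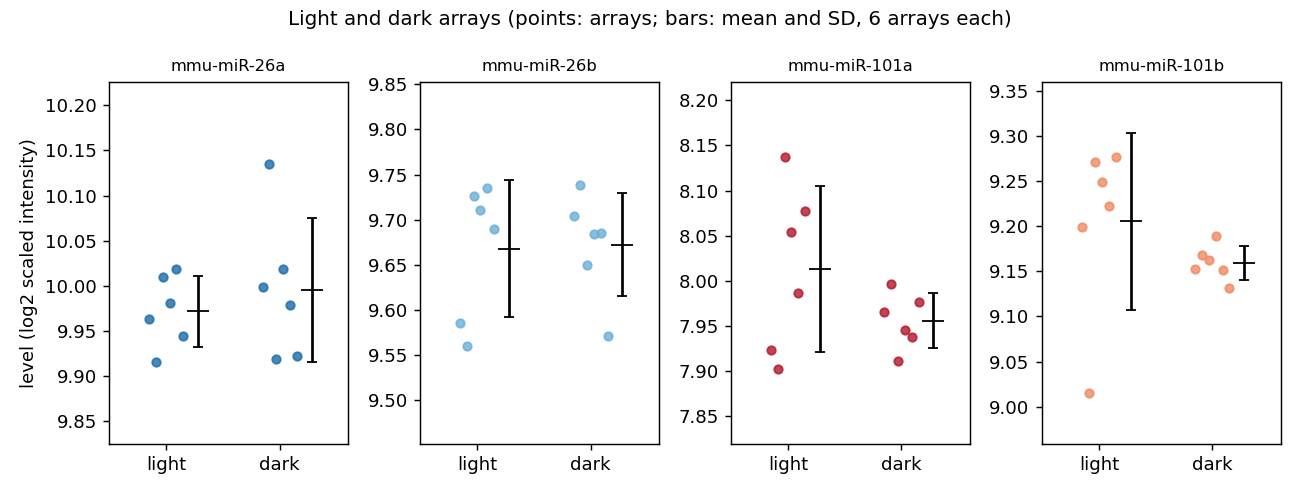
Log2 scaled intensity of each miRNA in 6 light and 6 dark pools (points), with the mean and SD of each group as the black mark and bar; each panel has its own y axis of equal width. The dark miR-101b pools lie between 9.13 and 9.19, and the light pools spread from 9.02 (ZT30) to 9.28.

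No 24-h rhythm was detected in any of the 4. A cosine and sine with a period of 24 h gave 0 of 139 entries past the threshold after adjustment in limma (0%), and 5 entries had an unadjusted p under 0.05 (3.6%), none of them a miR-26 or miR-101 strand. The fitted peak-to-trough folds were 1.06 for miR-26a, 1.02 for miR-26b, 1.05 for miR-101a and 1.03 for miR-101b. Their upper 95% limits were 1.16, 1.14, 1.18 and 1.16, so a rhythm of 1.5-fold would lie outside each interval at this scaling. With scaling on the 75th percentile of all probes, the fitted folds were 1.31 to 1.37, beside a median of 1.31 over all tested entries, and the limits 2.71 to 2.998, which do not exclude such a rhythm. With normexp the limit of miR-101a was 1.76. The median limit of the 63 bright entries was 1.18, and 58 of them had a limit under 1.5. The limma adjusted p was 0.932 for miR-26a and miR-101a and 0.989 for miR-26b and miR-101b, and permutation of the 12 times gave p = 0.244, 0.858, 0.463 and 0.874 for miR-26a, miR-26b, miR-101a and miR-101b. The median fitted fold of all tested entries was 1.08, above each of the 4.

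Compared over the 6 clock times without a set shape, 0 entries passed after adjustment in limma (0%) and 5 had an unadjusted p under 0.05 (3.6%), with 0 of the 4 among them. On the brighter of the 2 probes of each, from which levels are read here, the miR-101 strands were highest 10 h after lights-on in each cycle. There miR-101a had a mean of 8.11 ± 0.04 (SD, n = 2) on the log2 scale against 7.94 to 7.99 at the other 5 clock times, and miR-101b had 9.27 ± 0.0037 against 9.12 to 9.22. The highest clock time exceeded the lowest by 1.12-fold and 1.11-fold, with limma adjusted p = 0.795 for both. On the dimmer probes, the highest pool of cycle 2 was instead ZT50, 2 h after lights-on. It read 8.08 against 8.03 at ZT58 for miR-101a, and 7.92 against 7.71 for miR-101b. The miR-26 strands were highest 22 h after lights-on and lowest at 14 h, 1.10-fold apart in miR-26a (limma adjusted p = 0.795) and 1.07-fold in miR-26b (limma adjusted p = 0.877). At the highest clock time of miR-26a its 2 pools differed by 0.16 on the log2 scale, more than the 0.14 between its highest and lowest clock-time means.

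Levels on the second day were close to those of the first. Cycle 2 minus cycle 1, with clock time in the model, called 0 of 139 entries after adjustment in limma (0%), and 5 entries had an unadjusted p under 0.05 (3.6%), none of them among the 4. The fold of cycle 2 over cycle 1 was 0.991 for miR-26a (95% interval 0.935 to 1.05), 1.01 for miR-26b (0.946 to 1.08), 1.02 for miR-101a (0.962 to 1.07) and 1.03 for miR-101b (0.973 to 1.09). Of the 6 pairs of pools 24 h apart, 4 were higher in cycle 2 for miR-26a, 2 for miR-26b, 3 for miR-101a and 4 for miR-101b. Since 4 of the 6 arrays of cycle 2 were on slide 2, cycle and slide can be told apart only in part.

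The dark-minus-light difference was also compared between cycles, as an interaction. limma called 0 entries after adjustment (0%), and 3 entries had an unadjusted p under 0.05 (2.16%), with 0 of the 4 among them. For miR-26b the log2 difference was 0.07 in cycle 1 and -0.06 in cycle 2, a change of -0.14 (95% interval -0.29 to 0.02; limma adjusted p = 0.944). For miR-101b it was 0.00 in cycle 1, which holds ZT30, and -0.09 in cycle 2 (limma adjusted p of the change 0.944). The corresponding differences were 0.05 and -0.01 for miR-26a and -0.03 and -0.09 for miR-101a.

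Differences taken within an array do not depend on a common scaling factor. Their size mixes abundance with the brightness of 2 different probes, so only their change between pools is read here. The log2 difference of miR-26a minus miR-26b ran from 0.25 (ZT58) to 0.40 (ZT22), with a light mean of 0.30 ± 0.05 and a dark mean of 0.32 ± 0.05 (SD, 6 pools in each; exact two-sided permutation p = 0.500). That of miR-101a minus miR-101b ran from -1.28 (ZT26) to -1.11 (ZT30), with means of -1.19 ± 0.06 and -1.20 ± 0.04 (exact permutation p = 0.701). Across the 2 days the difference between partners thus spanned 0.14 log2 units for miR-26 and 0.16 for miR-101.

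The mean of both miR-26 strands minus the mean of both miR-101 strands had a light mean of 1.21 ± 0.06 and a dark mean of 1.28 ± 0.05 (SD, 6 pools in each). Of the 6 dark pools, 5 lay above the light mean and 4 above every light pool, while ZT38 and ZT62 lay among the light pools. The change was 0.07 on the log2 scale, or 1.05-fold for miR-26 relative to miR-101, and it did not pass (exact two-sided permutation p = 0.0714; 0.214 adjusted over the 3 within-array differences). Before that adjustment, 4 other ways of reading the spots gave an exact permutation p under the threshold: 0.0455 with normexp background correction, 0.0216 with the scanner software's summed signal, and 0.0238 each with the mean of both probes and with outlier spots kept. Quantile normalization gave a change of 0.01 (exact permutation p = 0.656), and the median of spots gave 0.06 (exact permutation p = 0.0736). Leaving out each array in turn gave an exact permutation p of 0.0368, 0.0433 and 0.026 without ZT30, ZT54 and ZT62, and of 0.0736 to 0.136 without each of the other 9.

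**Figure D4:**
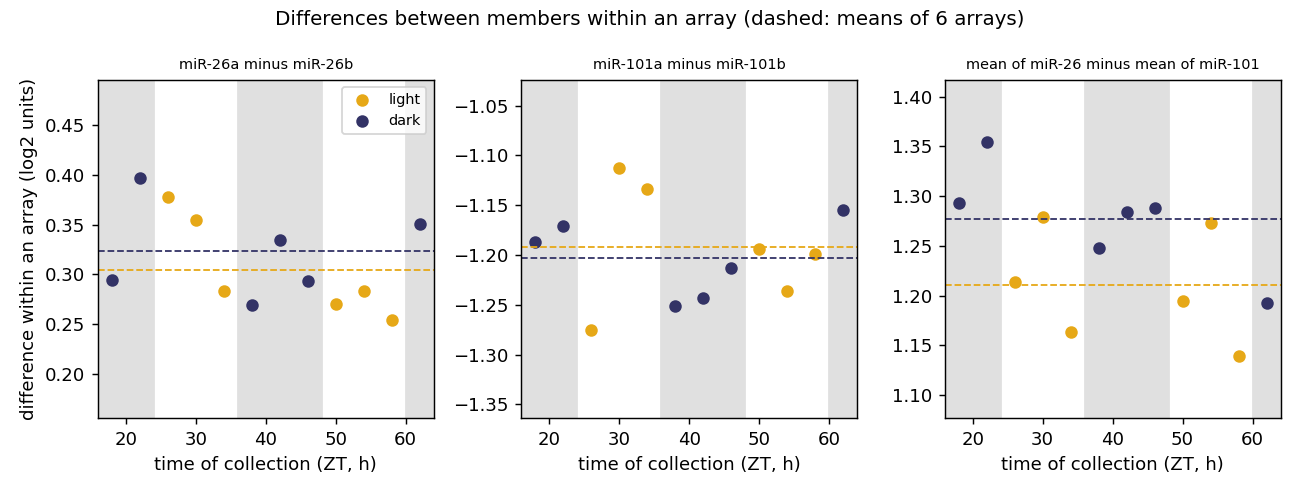
Log2 differences within an array between miR-26a and miR-26b, between miR-101a and miR-101b, and between the means of both families, against time of collection in h (ZT), with light pools in yellow, dark pools in blue and group means of 6 pools as dashed lines. In the right panel 4 of 6 dark pools lie above every light pool; in the other panels the groups intermix.

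Across the 12 pools, partners of a family correlated within their narrow range, a call that other ways of processing often ended. Pearson's r of the log2 levels was 0.716 for miR-26a with miR-26b (permutation p = 0.00559, 0.0168 adjusted over the 6 pairs; Spearman's rho 0.790, p = 0.00315). For miR-101a with miR-101b it was 0.764 (permutation p = 0.0036, adjusted 0.0168; rho 0.720, p = 0.0104). Without the 2 pools farthest from the median, r was 0.700 for the miR-26 pair (left out ZT22 and ZT30; permutation p = 0.0244, adjusted 0.146) and 0.626 for the miR-101 pair (left out ZT34 and ZT58; p = 0.0574, adjusted 0.172). Neither pair passed after adjustment there, with fewer arrays left, although r of the miR-26 pair hardly changed. Leaving out ZT30 or ZT62 alone also ended the miR-26 call (adjusted permutation p = 0.0809 and 0.0719), with r at 0.667 and 0.677. The miR-101 pair passed in all 12 runs without 1 array (r from 0.716 to 0.816).

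Between families, miR-26b correlated with miR-101b (r = 0.638, permutation p = 0.0232, adjusted 0.0463; rho 0.573, p = 0.0558). This r fell to 0.212 (permutation p = 0.586) without ZT30 and ZT62, the 2 pools farthest from the median of miR-26b. It was 0.422 without ZT30 alone and 0.622 without ZT62 alone, and neither passed (adjusted permutation p = 0.293 and 0.0719). For miR-26b with miR-101a, r was 0.566 (permutation p = 0.0523, adjusted 0.0784; rho 0.734, p = 0.00868), and r was 0.557 without those pools. For miR-26a with either miR-101 strand, r was 0.261 and 0.273 (rho 0.497 and 0.392; adjusted permutation p = 0.408 for both r). Within the 8 arrays of slide 1, r was 0.751 for the miR-26 pair (exact permutation p = 0.0262, adjusted 0.157) and 0.695 for the miR-101 pair (exact permutation p = 0.117, adjusted 0.180). No value is given for slide 2, which holds 4 arrays.

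The whole array moved with these levels. The median deviation of all tested entries on an array was lowest at ZT30 (-0.066 on the log2 scale), close to ZT38 (-0.065) and ZT62 (-0.060). It correlated with the 4 miRNAs over the 12 arrays with r from 0.605 (miR-26a) to 0.813 (miR-26b). The 4 are themselves among the entries of this median, so these r are not independent of them. The median was the value of miR-26a itself at ZT26 and ZT38, and that of miR-101b at ZT42. After that median was subtracted, neither pair passed: r was 0.448 for the miR-26 pair (adjusted permutation p = 0.467) and 0.535 for the miR-101 pair (adjusted permutation p = 0.446). It was -0.305 and -0.325 for miR-26a with miR-101a and miR-101b. With quantile normalization r was 0.175 for the miR-26 pair (adjusted permutation p = 0.704) and 0.0367 for the miR-101 pair (adjusted permutation p = 0.911), and with the scanner software's summed signal both had an adjusted permutation p of 0.101. Over the 24 alternatives run, the miR-26 pair passed in 15 and the miR-101 pair in 17. Of these passes, 10 and 12 were runs without 1 array, which share most of their arrays. The passes included scaling on all probes (r = 0.997 and 0.994) and no scaling (0.925 and 0.904). In those settings r of miR-26a with miR-101a was also 0.990 and 0.761.

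The 3 entries most like each member, by Pearson's r over the 12 pools among the 108 other tested entries never at the floor, are given as a description, since all share the same arrays and scaling. For miR-26a they were miR-23b (r = 0.882), miR-27b (0.873) and let-7d (0.819). miR-23b and miR-27b are made from the same gene cluster. For miR-26b they were let-7i (0.917), let-7f (0.883) and let-7d (0.830), all of the let-7 family, which is abundant in differentiated tissue. For miR-101a they were let-7g (0.801), miR-1895 (0.791) and miR-378 (0.783). For miR-101b they were miR-1895 (0.922), let-7f (0.796) and its partner miR-101a (0.764). Neither miR-26 strand was among the 3 most like the other. The median r of all 5886 pairs of such entries was 0.184.

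Each of the 4 miRNAs had 2 probes, both detected on all 12 arrays, and the values above come from the one with the higher mean. The other probe had a mean of 570.5 units for miR-26a, 512 for miR-26b, 248 for miR-101a and 203 for miR-101b. Over the 12 arrays, the log2 values of both probes correlated with r = 0.555 for miR-26a, 0.725 for miR-26b, 0.802 for miR-101a and 0.870 for miR-101b (rho 0.594, 0.678, 0.804 and 0.923). The permutation p, adjusted over the 4, was 0.0534, 0.00653, 0.00226 and 0.00216. Without the 2 arrays farthest from the median, r was 0.308 for miR-26a, where it rests on those arrays, and 0.790, 0.883 and 0.862 for the others. Within the 8 arrays of slide 1, r was 0.709, 0.877, 0.900 and 0.975.

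The second probes gave the same highest or lowest pool as the first in 4 of 8 cases. The highest pool was again ZT22 for both miR-26 strands, and the lowest again ZT30 for miR-26b and miR-101b. For miR-26a and miR-101a the lowest pool was ZT38, and for both miR-101 strands the highest was ZT50. Dark minus light on these probes was 0.03 for miR-26a and miR-26b, -0.07 for miR-101a and -0.08 for miR-101b on the log2 scale, with exact two-sided permutation p = 0.355, 0.470, 0.0887 and 0.273. The signs were those of the brighter probes, and none passed. Cycle 2 minus cycle 1 of miR-26a was 0.08 on the second probe, against -0.01 on the first (limma adjusted p = 0.825, unadjusted 0.0094).

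**Figure D5:**
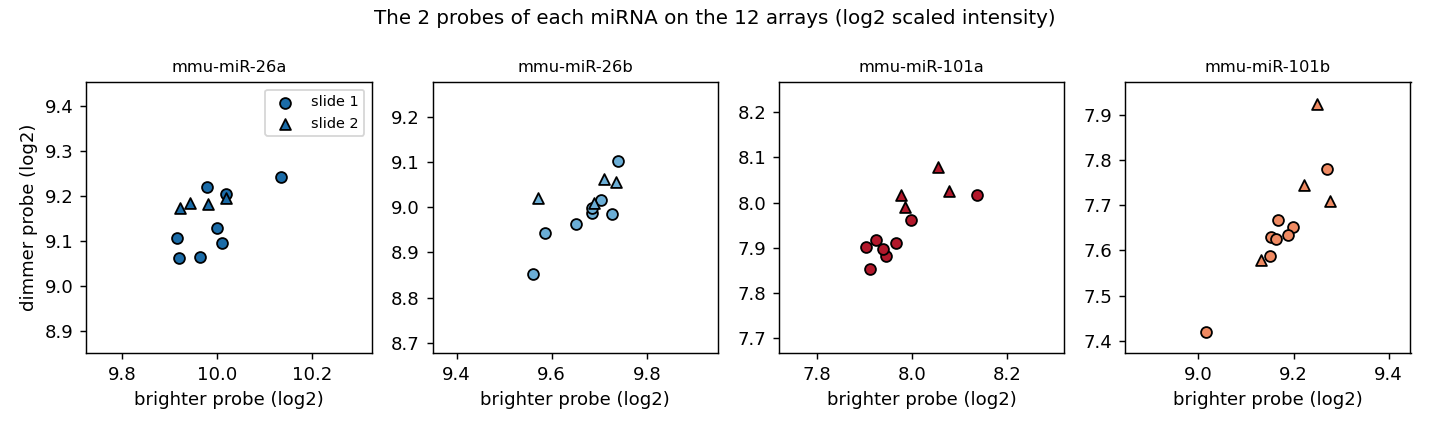
Log2 scaled intensity of the dimmer probe (y axis) against the brighter probe (x axis) of each miRNA on the 12 arrays, with circles for slide 1 and triangles for slide 2; each panel has its own range. The points rise together most closely for miR-101b (r = 0.870) and least for miR-26a (r = 0.555).

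The members were set beside other miRNAs reported as altered in liver cancer, from lists drawn up for this purpose and described by counts alone. Of 31 other miRNAs reported as low in liver cancer, 27 were tested: 14 were higher and 13 lower by their dark means, and their median difference was 0.00 on the log2 scale, beside -0.02 for all 139. The array had no entry named miR-199b, so its star entry miR-199b* (0.18) was read for it and counted among the 14. limma called 0 of the 27 after adjustment, and 3 had an unadjusted p under 0.05, beside 11 of all 139 (7.91%). The largest difference was that of miR-200a (0.38; light mean 4.51, dark mean 4.89, with 3 arrays at the floor; limma adjusted p = 0.581). The smallest was that of miR-34a, a miRNA induced by p53 (-0.11; 6.43 and 6.32; limma adjusted p = 0.741).

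Of 27 miRNAs reported as high in liver cancer, 13 were tested and 11 were detected on no array. Of the 13, 2 were higher and 10 lower by their dark means, the median being -0.05, and miR-301a lay at the floor throughout. Among all 139 entries, 41 were higher and 93 lower, with a median of -0.02. limma called 0 of the 13 after adjustment, and 1 had an unadjusted p under 0.05, beside 11 of all 139. The largest difference was that of miR-181b (0.24; light mean 5.53, dark mean 5.77, with 1 array at the floor; limma adjusted p = 0.888). The smallest was that of miR-21, a miRNA that promotes growth (-0.09; 13.13 and 13.04; limma adjusted p = 0.741). The miR-26 and miR-101 differences, from -0.06 to 0.02, lay within the range of both lists. Among the entries of this second list never at the floor, however, the largest difference was 0.0188, below the 0.0234 of miR-26a.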

How the data were processed

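miRNAs were read in total RNA on 12 one-colour Agilent arrays. The deposited values are spot intensities, subtracted for background and detrended by Feature Extraction, per the file headers (version 10.7.3.1 there, 9.5.3.1 in the submitters' processing notes), with no scaling between arrays. The deposited value table differed by 0 from them, and its column medians were 0.661 to 4.12.

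Control spots and outlier spots (3.86% to 7.05%) were left out and the spots of a probe averaged. Arrays were scaled to the 75th percentile over 157 probes detected on all arrays (more than 50% of spots well above background), floored at 21.9 units and put on the log2 scale. A miRNA was read from its brightest probe. limma 3.58.1 in R 4.3.3 tested 139 entries, with a variance trend on intensity, Benjamini-Hochberg adjustment and a threshold of 0.05, and the code was tested on simulated data. Single values had exact permutation tests, or 100000 draws. Normexp used the median signal in place of the mean signal, and the mean signal was not used here.

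The members and lists were chosen with earlier results of these data known. The entries named are the 4 members, other strands of their hairpins, entries that share a seed, the 3 most like each member, and the largest and smallest difference of each list. Among further entries named is miR-199b*, read for miR-199b. The number of arrays limits the precision.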

Additional observations from a re-analysis of the deposited data

Results flagged for a closer look

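Among the 6 light pools, miR-101b at ZT30 stood apart: its log2 level was 9.02, and its gap to the next pool, as a share of the range of the group, was 0.702, beyond Dixon's 95% limit for 6 samples. Chance marks about 1 in 20 such groups, and 14 groups were examined (8 of the members and 6 of their within-array differences). Both probes of miR-101b were lowest on this array, on which the median of all tested entries was also the lowest of the 12 arrays (-0.066). That median was nearly as low at ZT38 (-0.065) and ZT62 (-0.060). The deviation of miR-101b from its mean was -0.17 at ZT30, -0.02 at ZT38 and -0.05 at ZT62. The part of the ZT30 array in the miR-101b value was not tested beyond leaving it out.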

How the results depend on the processing

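The 24-h test of the 4 miRNAs had an adjusted or permutation p above 0.05 under every alternative run, with fitted folds up to 1.37 (scaling on all probes). Signs turned as follows; causes were not tested. Dark minus light became 0.371 (scaling on all probes), 0.0223 (quantile) and 0.00312 (no scaling) for miR-101a, 0.382, 0.0146 (no scaling) and 0.00295 (slide 1 only) for miR-101b, and -0.00267 (median of spots) for miR-26b. Without 1 array it ranged from -0.0799 to -0.0330 for miR-101a, -0.0843 to -0.0321 for miR-101b, -0.00448 to 0.0387 for miR-26a and -0.0170 to 0.0247 for miR-26b. Cycle 2 minus cycle 1 became -0.509, -0.000568 (quantile), -0.0214 (no scaling) and -0.0394 (slide block, and slide 1 only) for miR-101a, and -0.491 and -0.00321 (no scaling) for miR-101b. It became 0.00682 (software sum), 0.0318 (mean of probes) and 0.0768 (other probe, chosen after seeing the data) for miR-26a, and -0.514, -0.0266, -0.00915 (normexp) and -0.0363 (slide block, and slide 1 only) for miR-26b. Without 1 array it ranged from -0.0364 to 0.0155 (miR-26a) and -0.0126 to 0.0380 (miR-26b). All-probe scaling moved the cycle median of all entries to -0.496, and normexp moved it to 0.356 and the dark-light median to -0.360. The miR-101a minus miR-101b change became 0.0624 (quantile) and 0.00261 (mean of probes), and -0.0282 to 0.00442 without 1 array. The miR-26a minus miR-26b change became -0.00769 (quantile). The family-mean change kept its sign, from 0.0141 to 0.171. Correlations became -0.305 (array median removed), -0.782 (normexp) and -0.350 (software sum) for miR-26a with miR-101a. For miR-26a with miR-101b they became -0.325, -0.489 (quantile), -0.330 (normexp) and -0.191 (software sum), and for miR-26b with miR-101a, 0.566 before, -0.427 (normexp). For miR-26b with miR-101b the sign held, and 10 of 24 alternatives passed, 5 of them runs without 1 array.

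Counts of calls rose from 0 in limma to 1 (normexp, miR-451, 24-h and clock times), 2 (slide 1 only, clock times: miR-362-3p and miR-680) and 1 (quantile, interaction: miR-148a). Leaving out 1 array gave 0 to 7 calls over clock times (7 without ZT26, none of the 4) and 0 to 2 between dark and light. With cycle as a replicate block, dark against light called 0, and 0 without entries always at the floor, chosen after seeing the data. The cycle test on slide 1 alone rests on 2 pairs of pools and called 0; the interaction could not be fitted there, since its cycle 2 arrays are all dark.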
